A study of Rattus norvegicus with 30 samples.

Results

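The smooth muscle contractile genes described here are 10 genes whose products build, regulate or switch on the contractile apparatus of smooth muscle cells: Acta2, Actg2, Myh11, Tagln, Cnn1, Smtn, Lmod1, Synpo2, Des and Myocd. They were chosen by name, as the rows of a lung RNA sequencing table that carry these gene symbols, and all 10 were found among the 35224 genes of the table. The lungs came from neonatal rats of a bronchopulmonary dysplasia model, in which newborns breathed gas labelled as 85% oxygen (hyperoxia, FiO2 0.85) or as 21% oxygen (room air, FiO2 0.21). Each arm was sampled at postnatal days 1, 3, 7, 10 and 14 with 3 libraries per group, giving 10 groups and 30 libraries. About 40 mg of whole lung was used per sample, with the trachea section cut away, so airway and vessel muscle stayed mixed with every other lung cell. The labels name no strain, genotype or sex, and they give 12 rats per arm although each arm holds 15 libraries. No label says whether the 3 libraries of a group come from separate animals. The p-values therefore describe the variation among these libraries, part of which may be technical.

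Smooth muscle shortens when myosin heads pull on actin filaments, after calcium and calmodulin have activated the kinase that phosphorylates the myosin light chain. The genes of this apparatus are transcribed together in differentiated smooth muscle cells, largely through serum response factor (SRF), which binds a DNA element called the CArG box, and its coactivator myocardin, the product of Myocd. In the lung these genes mark airway and vascular smooth muscle. Acta2 and Tagln are also expressed by the alveolar myofibroblasts that are present while alveolar septa form, and by pericytes in part.

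Promoter sequence is shown for 3 genes that were lower together at day 14 in the 85%-labelled group, since the CArG box is the element these genes are known to share. RefSeq promoter windows of the GRCr8 rat assembly matched 6 of the 10 genes by symbol: Acta2, Cnn1, Actg2, Des, Smtn and Synpo2. Each sequence below is the 250 bases before the annotated transcription start, on the gene's own strand, at chr1:241172504-241172753 (minus strand) for Acta2, chr4:117594040-117594289 (minus strand) for Actg2 and chr8:28908187-28908436 (plus strand) for Cnn1. Capitals mark CArG-like boxes, searched on both strands as CCNNNNNNGG with at most 1 G or C among the 6 central bases.
Acta2: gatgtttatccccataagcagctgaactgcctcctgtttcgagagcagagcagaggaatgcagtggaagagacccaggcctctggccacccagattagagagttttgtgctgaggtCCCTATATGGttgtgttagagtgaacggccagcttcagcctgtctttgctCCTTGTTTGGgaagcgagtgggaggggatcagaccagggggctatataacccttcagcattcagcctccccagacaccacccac
Actg2: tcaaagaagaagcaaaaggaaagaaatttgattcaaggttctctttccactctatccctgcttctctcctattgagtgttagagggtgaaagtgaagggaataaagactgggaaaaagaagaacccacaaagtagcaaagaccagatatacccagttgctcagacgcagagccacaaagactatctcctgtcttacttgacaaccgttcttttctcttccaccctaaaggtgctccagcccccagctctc
Cnn1: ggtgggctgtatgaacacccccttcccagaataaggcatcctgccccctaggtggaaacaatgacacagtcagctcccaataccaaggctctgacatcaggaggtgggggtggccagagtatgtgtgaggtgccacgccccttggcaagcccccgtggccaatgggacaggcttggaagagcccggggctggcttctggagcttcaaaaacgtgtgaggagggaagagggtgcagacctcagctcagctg
The Acta2 window held 2 such boxes, CCCTATATGG at 134 to 125 bases and CCTTGTTTGG at 84 to 75 bases before the start. The windows of Cnn1, Actg2, Des, Smtn and Synpo2 held none of these letters. Of 33469 RefSeq promoter windows of the same length, 2703, or 8.08%, held at least 1 box. With no G or C allowed in the centre, 501 windows (1.5%) held a box and none of the 6 genes' windows did. A match of letters is a description of the sequence and not a measured binding site.

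Libraries held 14951463 to 18074590 counted reads, with a median of 16069831, and the 10 genes together made up 0.149% to 0.398% of a library's counts. Levels are given as CPM, counts scaled to a common library total after scaling of library sizes by the trimmed mean of M-values (TMM), and levels compared between genes as FPKM, which also divides by gene length. Several properties of the libraries bear on the results. Cdkn1a, a p53 target that hyperoxia is known to induce in lung, lay at 382 to 462 CPM in the 21%-labelled libraries of day 14 and at 25.3 to 34.0 CPM in the 85%-labelled ones, opposite to the labels, so groups are named by their labels throughout and no direction is read as an oxygen effect. Mitochondrial genes took 2.65% to 19.1% of a library's counts, above 6% in 85%-labelled day 1 replicates 1 and 3, 85%-labelled day 3 replicate 3 and 21%-labelled day 3 replicate 3. The 85%-labelled day 10 replicate 1 held RNA of skeletal muscle and squamous epithelium (Acta1 891 CPM, Krt13 94.8 CPM). The 21%-labelled day 1 replicate 2 held RNA of squamous epithelium and some skeletal muscle (Krt13 110.7 CPM, Acta1 40.3 CPM). The 85%-labelled day 14 replicate 3 held RNA of heart and cartilage (Myh6 368 CPM, Col2a1 228 CPM). Heart muscle genes summed to 433 CPM in 85%-labelled day 1 replicate 1, against 69.1 and 70.1 CPM in the others of its group. They summed to 262 CPM in 21%-labelled day 10 replicate 3, against 52.5 and 75.3 CPM in the others of its group. The 21%-labelled day 10 replicate 3 was the highest of its group for every member except Smtn. The rank correlation of level with gene length across protein-coding genes ran from 0.0713 to 0.302 over the libraries, and is called the length correlation below.

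Per length, Tagln and Acta2 were the most abundant of the 10 genes, with median levels over the 30 libraries of 567 and 433 FPKM. Actg2 followed at 124, Cnn1 at 79.6, Myh11 at 54.9, Des at 45.1 and Smtn at 41.1 FPKM. Lmod1 at 6.30, Synpo2 at 5.84 and Myocd at 1.78 FPKM were far lower, and the lowest raw count of Myocd in a library was 30 reads.

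**Figure D1:**
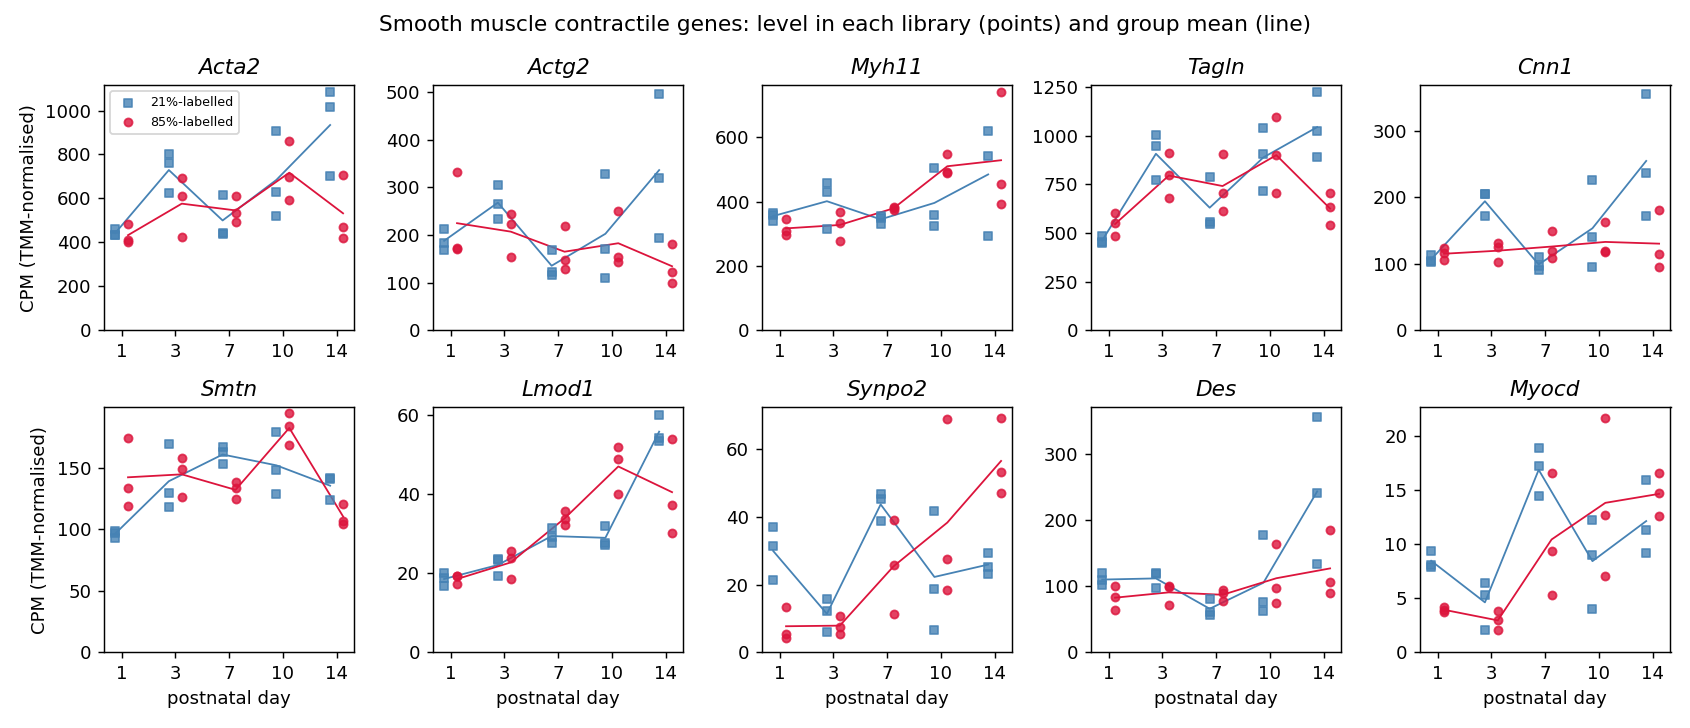
Level of each of the 10 genes in CPM (vertical axes, from 0) against postnatal day, with 1 point per library and a line through the group means, 21%-labelled as blue squares and 85%-labelled as red circles. At day 14 the 21%-labelled means of Acta2, Actg2, Tagln, Cnn1 and Des are their highest, at 934, 336, 1044, 255 and 244 CPM, while Synpo2 is highest in the 85%-labelled group at 56.6 CPM.

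The filament proteins come first, with levels as mean ± SD (n = 3) and the 5 sampling days in order of age. Acta2 (ENSRNOG00000058039, chromosome 1, 252537615 to 252550394 in the coordinates of the table, rat build not given in the sources used here) encodes smooth muscle alpha-actin. In the 21%-labelled groups it stood at 441 ± 16.5, 729 ± 92.7, 499.6 ± 102, 684 ± 201 and 934 ± 204 CPM, and in the 85%-labelled groups at 433 ± 43.4, 576 ± 135, 545 ± 60.6, 717 ± 135 and 532 ± 153 CPM. Actg2 (ENSRNOG00000029401, chromosome 4, 115215060 to 115239723) encodes smooth muscle gamma-actin, best known from visceral muscle. Its level was 188 ± 22.8, 268 ± 36.1, 135 ± 29.4, 202 ± 112 and 336 ± 151 CPM in the 21%-labelled groups and 225 ± 93.6, 207 ± 46.7, 165 ± 47.3, 183 ± 58.8 and 134 ± 42.1 CPM in the 85%-labelled groups. Myh11 (ENSRNOG00000057880, chromosome 10, 764421 to 859184) encodes the smooth muscle myosin heavy chain. Myh11 measured 355 ± 13.5, 401 ± 76.1, 345 ± 12.7, 396 ± 96.3 and 485 ± 170.0 CPM in the 21%-labelled groups, against 317 ± 27, 328 ± 45.4, 379 ± 5.5, 510.2 ± 34 and 529 ± 186 CPM in the 85%-labelled groups. The 21%-labelled group of day 14 was the highest of the 10 groups for both actins, and the 85%-labelled group of day 14 for Myh11. In the order of the 10 group means, all 9 pairs of neighbours overlapped in their libraries for Acta2 and for Actg2, and 8 of 9 for Myh11, where the 85%-labelled group of day 7 lay above the 21%-labelled group of day 1.

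The actin-binding proteins follow in the same order of days. Tagln (ENSRNOG00000017628, chromosome 8, 50222896 to 50231357) encodes transgelin, which bundles actin. The 21%-labelled means were 461 ± 20.2, 907 ± 119, 629.5 ± 136, 888 ± 162 and 1044 ± 168 CPM, and the 85%-labelled means 545 ± 59.1, 795 ± 116, 741 ± 149.8, 899.6 ± 195 and 625 ± 83.5 CPM. Cnn1 (ENSRNOG00000027736, chromosome 8, 23113048 to 23121761) encodes calponin 1, which inhibits the myosin ATPase on actin. Group means of Cnn1 were 107 ± 5.71, 194 ± 18.7, 98.9 ± 9.59, 153 ± 66.6 and 255 ± 93.4 CPM in the 21%-labelled arm and 115 ± 9.56, 119.7 ± 14.6, 126 ± 21.6, 133 ± 25.7 and 130.3 ± 45.5 CPM in the 85%-labelled arm. Both were highest in the 21%-labelled group of day 14, and no neighbours in the order of their group means were apart.

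Smtn (ENSRNOG00000019451, chromosome 14, 83755142 to 83776863) encodes smoothelin, a cytoskeletal protein of contractile smooth muscle. In the 21%-labelled groups it stood at 96.2 ± 2.92, 139 ± 26.8, 161 ± 7.24, 152 ± 25.2 and 135 ± 10.2 CPM, and in the 85%-labelled groups at 142 ± 28.5, 144 ± 16.4, 132 ± 6.8, 182 ± 13 and 110.3 ± 8.69 CPM. Its highest group was 85%-labelled day 10 and its lowest 21%-labelled day 1, and these stood clear of their neighbours in the order of means. The 21%-labelled day 10 replicate 2, at 178.7 CPM, still lay within the range of 85%-labelled day 10. Lmod1 (ENSRNOG00000051548, chromosome 13, 52147555 to 52190228) encodes leiomodin 1, which nucleates actin filaments. Its level was 18.5 ± 1.66, 22 ± 2.33, 29.4 ± 1.9, 28.9 ± 2.63 and 55.7 ± 3.55 CPM in the 21%-labelled groups and 18.5 ± 1.18, 22.7 ± 3.66, 33.8 ± 1.69, 46.9 ± 6.14 and 40.4 ± 12.1 CPM in the 85%-labelled groups. Its group means were higher at each later day up to day 7 in both arms, and 3 of 9 neighbours were apart, among them the 21%-labelled group of day 14 and the next, 85%-labelled day 10. The 85%-labelled day 14 replicate 3, at 53.8 CPM, still lay above the lowest 21%-labelled library of day 14, at 53.4 CPM. Synpo2 (ENSRNOG00000014867, chromosome 2, 227255902 to 227411964) encodes synaptopodin 2, an actin-bundling protein of muscle. Synpo2 measured 30.0 ± 7.98, 11.4 ± 4.94, 43.7 ± 4.22, 22.3 ± 17.9 and 25.9 ± 3.19 CPM in the 21%-labelled groups, against 7.69 ± 4.99, 7.87 ± 2.65, 25.4 ± 13.9, 38.4 ± 26.9 and 56.6 ± 11.4 CPM in the 85%-labelled groups. Its 85%-labelled libraries of day 14, at 53.4, 47.1 and 69.3 CPM, lay above those of the next group, 21%-labelled day 7, while 85%-labelled day 10 replicate 1 reached 68.9 CPM.

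The last pair is an intermediate filament and a transcriptional coactivator. Des (ENSRNOG00000019810, chromosome 9, 82556573 to 82564294) encodes desmin, which links contractile units in all muscle types. The 21%-labelled means were 110.0 ± 8.79, 112 ± 13.1, 65.9 ± 12.4, 105 ± 62.7 and 244 ± 112 CPM, and the 85%-labelled means 82.6 ± 17.9, 90.7 ± 16.1, 87 ± 8.79, 112 ± 46.4 and 127 ± 51.3 CPM. Myocd (ENSRNOG00000003669, chromosome 10, 51683540 to 51778986) encodes myocardin. Group means of Myocd were 8.44 ± 0.807, 4.61 ± 2.24, 16.8 ± 2.26, 8.41 ± 4.14 and 12.1 ± 3.48 CPM in the 21%-labelled arm and 3.92 ± 0.224, 2.94 ± 0.907, 10.4 ± 5.67, 13.8 ± 7.37 and 14.6 ± 1.98 CPM in the 85%-labelled arm. Between the highest and lowest groups the means differed 3.70-fold for Des and 5.73-fold for Myocd, and neighbours overlapped for both genes throughout.

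At day 14, 4 of the 10 genes, Acta2, Actg2, Tagln and Cnn1, were called lower in the 85%-labelled group and none was called higher. A gene is called where its Benjamini-Hochberg adjusted p over 17571 tested genes is below 0.05 in edgeR's quasi-likelihood test and its log2 difference is at least 0.5 in size. Of all genes tested 21.2% were called at day 14, 10.8% in the lower direction and 10.5% in the higher, and all 10 members had passed the filter on low counts. The median log2 difference of the 10 genes was −0.60, against 0.01 over all genes tested. In bulk tissue, fewer cells of a type and less RNA per cell cannot be told apart.

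Acta2 stood at 1083, 1018 and 701.5 CPM in the 21%-labelled libraries of day 14 and at 469.5, 420.9 and 706 CPM in the 85%-labelled ones. The 85%-labelled replicate 3 reached the lowest 21%-labelled library, and the other 85%-labelled libraries were below all of them. The log2 difference (85%-labelled minus 21%-labelled) was −0.81 ± 0.22 (approximate SE, n = 3 per group, edgeR adjusted p = 0.00923). Actg2 stood at 319, 495 and 194 CPM against 123, 98.9 and 181 CPM, with no overlap and a log2 difference of −1.32 ± 0.36 (edgeR adjusted p = 0.00918), or 0.400 of the 21%-labelled level.

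Tagln stood at 1222, 1022 and 888 CPM against 631, 539 and 705 CPM. The groups did not overlap, and the log2 difference was −0.74 ± 0.19 (edgeR adjusted p = 0.00519). Cnn1 stood at 237, 356 and 172 CPM against 115, 94.5 and 182 CPM, where replicate 3 of each arm crossed over, and its log2 difference was −0.97 ± 0.26 (edgeR adjusted p = 0.00788). Single libraries carried some of these calls. Acta2 was no longer called without 85%-labelled replicate 2 (−0.69) or without 21%-labelled replicate 1 (−0.68), and Cnn1 (−0.68) and Actg2 (−0.96) were no longer called without 21%-labelled replicate 2. Tagln stayed called whichever of the 6 libraries was left out. With the day 14 groups fitted alone Cnn1 had an adjusted p of 0.0742, and its call was lost.

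Des and Lmod1 were lower by values that missed the rule at day 14. Des stood at 241, 356 and 133 CPM against 106, 89.5 and 186 CPM, a log2 difference of −0.94 ± 0.35 (edgeR adjusted p = 0.0527). Lmod1 stood at 54.0, 59.8 and 53.4 CPM against 37.3, 30.2 and 53.8 CPM, and its log2 difference of −0.46 ± 0.16 had an adjusted p of 0.0346 but fell short of 0.5 in size. The 85%-labelled replicate 3, the library with heart and cartilage RNA, was the highest of its group for all 10 genes. Without it Des was −1.33 and Lmod1 −0.74 on the log2 scale, both called.

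The remaining 4 genes gave no call at day 14. Smtn lay at 141, 124 and 142 CPM in the 21%-labelled libraries and at 107, 104 and 120 CPM in the 85%-labelled ones (log2 difference −0.29 ± 0.14, edgeR adjusted p = 0.130), so its groups were apart by a small step. Myh11 lay at 541, 620 and 294 CPM against 455, 392 and 740 CPM, with full overlap, and Myocd at 9.15, 15.9 and 11.3 CPM against 14.7, 12.6 and 16.6 CPM. Synpo2 went the other way, with 25.3, 29.4 and 23.1 CPM in the 21%-labelled libraries and 53.4, 47.1 and 69.3 CPM in the 85%-labelled ones (log2 difference 1.13 ± 0.54, edgeR adjusted p = 0.132). The authors' deposited comparison gave Synpo2 an adjusted p of 8.63e-09 at day 14. Groups without overlap were thus seen for 4 of the 10 genes, Tagln, Actg2, Smtn and Synpo2, where 50.1% of all genes tested had groups without overlap at day 14.

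**Figure D2:**
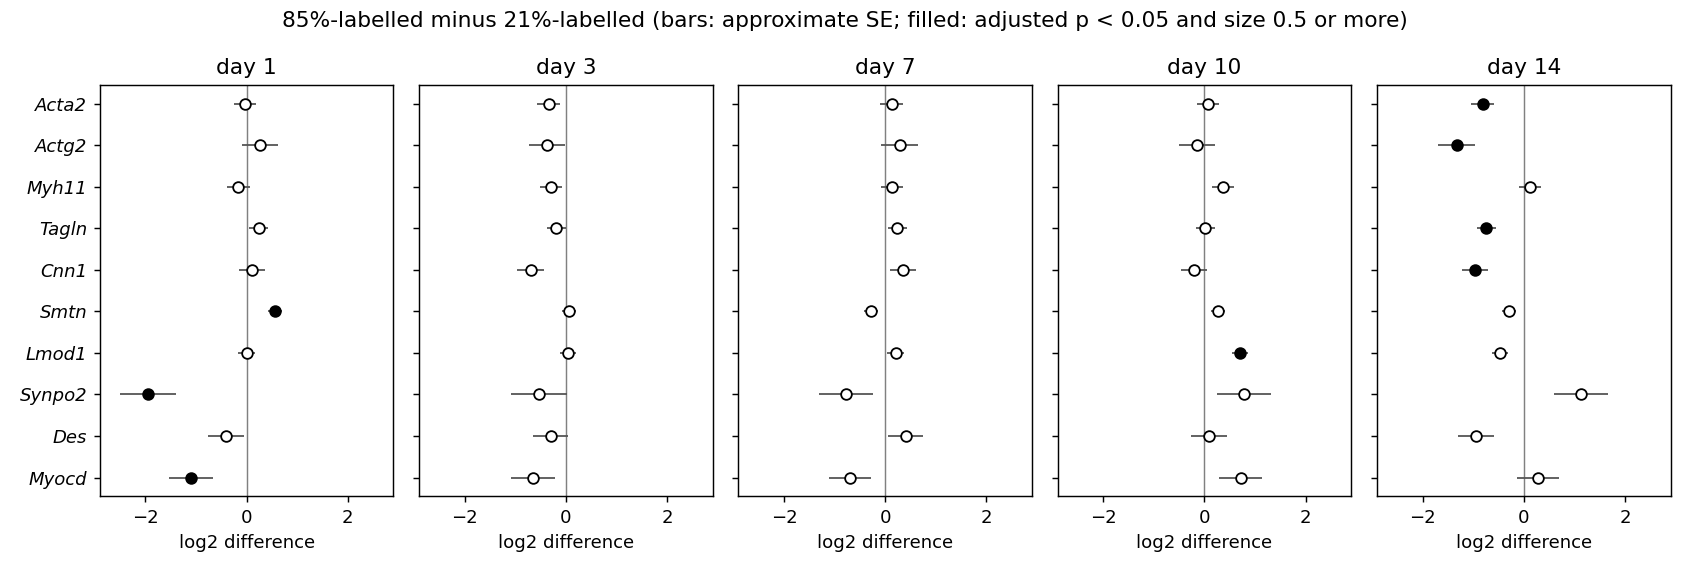
Log2 difference (85%-labelled minus 21%-labelled, horizontal axes) of each gene at each of the 5 days, with bars for the approximate SE and filled points for genes called. Day 14 has 4 filled points left of 0, between −1.32 and −0.74, while days 3 and 7 have none.

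Other measures also differed between the arms at day 14, and their part in the result was not tested. Counts of called markers stand beside 10.5% of all genes tested called higher and 10.8% lower. The summed level of 10 heart muscle genes was 210 to 1113 CPM in the 85%-labelled libraries and 36.3 to 145 CPM in the 21%-labelled ones, with 8 of 10 called higher. Endothelial markers summed to 2916 to 3329 CPM against 946 to 1289 CPM (5 of 6 tested called higher). Mesothelial markers summed to 52.2 to 97.0 CPM against 114 to 277 CPM (3 of 5 called lower), and lung epithelial markers to 14468 to 15003 CPM against 21690 to 26894 CPM (3 of 6 tested called lower), the same direction as the members. Macrophage markers summed to 188 to 214 CPM against 539 to 753 CPM (6 of 6 called lower), and genes that respond to handling and stress to 130.4 to 180.1 CPM against 551 to 923 CPM (6 of 6 called lower). Of 7 skeletal muscle genes tested none was called at day 14. The length correlation was 0.285, 0.286 and 0.302 in the 85%-labelled libraries against 0.192, 0.260 and 0.211. With it as a covariate, the count of members called at day 14 was 6, and with the mitochondrial share as a covariate it was 5. The share of all genes called in those fits is not given here, so these counts describe the members alone. Acta1 and Actc1 are close copies of Acta2 and Actg2. The counting of reads shared between copies is not described in the sources at hand, so levels of the 4 actins are uncertain to that extent. At day 14 Actc1 lay at 29.3 to 116.9 CPM in the 21%-labelled libraries and at 133 to 451 CPM in the 85%-labelled ones, opposite in direction to both members, and Acta1 was at or below 8.3 CPM in all 6.

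At days 3 and 7 none of the 10 genes was called in edgeR's test, where 0.393% and 0.0854% of all genes tested were called. At an unadjusted p below 0.05 there was 1 gene at day 3 and 0 at day 7, and DESeq2 called 0 at both days. That gene was Cnn1, at 173, 205 and 205 CPM in the 21%-labelled libraries and 131, 125 and 103 CPM in the 85%-labelled ones. Its groups did not overlap, and the log2 difference was −0.70 ± 0.26 (edgeR adjusted p = 0.452). The median log2 difference of the 10 genes was −0.32 at day 3 and 0.17 at day 7, against −0.02 and 0.02 over all genes.

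At day 10 only Lmod1 was called, higher in the 85%-labelled group, beside 2.93% of all genes tested, 1.75% in the higher direction. It stood at 48.9, 51.9 and 40.1 CPM in the 85%-labelled libraries and at 27.6, 27.2 and 31.9 CPM in the 21%-labelled ones, with no overlap. The log2 difference was 0.70 ± 0.16 (edgeR adjusted p = 0.0141). The call was lost without 85%-labelled replicate 1 (0.68), the library with skeletal muscle RNA, without 85%-labelled replicate 2 (0.62) and without 21%-labelled replicate 1 (0.69). It was also lost with the day 10 groups fitted alone (adjusted p = 0.186) and with replicate number added as a block (adjusted p = 0.0605). Beside it at day 10, endothelial markers summed to 2528 to 2737 CPM in the 85%-labelled libraries and 1631 to 1881 CPM in the 21%-labelled ones (4 of 6 tested called higher), and pericyte markers to 999 to 1109.9 CPM against 688 to 747 CPM (2 of 11 called higher). Handling and stress genes summed to 137 to 187 CPM against 391 to 578 CPM (5 of 6 tested called lower), and skeletal muscle genes to 5.84 to 1797 CPM against 3.99 to 12.9 CPM (4 of 7 tested called higher). The part of these in the Lmod1 result was not tested. The direction of Lmod1 at day 10 was opposite to that at day 14, where its difference of −0.46 missed the size threshold.

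At day 1 the genes that differed were others: Smtn was higher in the 85%-labelled group, and Myocd and Synpo2 were lower. These 3 of 10 compare with 41.4% of all genes tested at day 1, 20.6% higher and 20.8% lower, and the members' median log2 difference was −0.01, against 0.03 over all genes. Smtn stood at 174, 134 and 119 CPM in the 85%-labelled libraries and at 98.8, 93.1 and 96.8 CPM in the 21%-labelled ones (log2 difference 0.56 ± 0.14, edgeR adjusted p = 0.00295). Myocd stood at 3.72, 4.16 and 3.88 CPM against 8.09, 9.37 and 7.88 CPM (log2 difference −1.10 ± 0.43, edgeR adjusted p = 0.0392). Synpo2 stood at 5.50, 13.4 and 4.18 CPM against 21.3, 37.0 and 31.6 CPM (log2 difference −1.95 ± 0.56, edgeR adjusted p = 0.00732). The libraries of the arms did not overlap for these 3 genes nor for Des, so for 4 of 10, beside 53.1% of all genes tested at day 1.

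The day 1 calls moved with library properties. The length correlation was 0.0930, 0.147 and 0.0713 in the 85%-labelled libraries of day 1 and 0.227, 0.255 and 0.237 in the 21%-labelled ones, and 2 of the 85%-labelled libraries held 19.1% and 11.5% mitochondrial counts. None of the 3 genes was called with the mitochondrial share as a covariate, with the length correlation as a covariate, or without the libraries above 6% mitochondrial counts. With the length correlation as a covariate the log2 difference of Myocd turned to 0.43 (adjusted p = 0.365) and that of Synpo2 shrank to −0.03. Myocd lost its call whichever of the 6 libraries was left out (−1.18 to −1.05), and Smtn was not called without 85%-labelled replicate 1 (0.40). In that library heart muscle genes summed to 433 CPM, against 69.1 and 70.1 CPM in the others of its group. Synpo2 stayed called whichever was left out.

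Synpo2 and Myocd followed the length correlation across all libraries. Over 30 libraries, log2 CPM of Synpo2 correlated with it at Pearson r = 0.971 and Spearman rho = 0.982, and that of Myocd at r = 0.938 and rho = 0.933. In permutation tests, 2-sided over 10 relations, each gave p = 1e-05, the smallest the permutations could give, and 5e-05 after Benjamini-Hochberg adjustment. The permutations shuffled all 30 libraries regardless of group, so these p-values also take in differences between groups. Without the 2 libraries farthest from the median of the length correlation r was 0.968 and 0.934, and after subtraction of group means it was 0.939 and 0.906. Of all 17571 genes, 1036 (5.90%) had r of at least 0.9 with the length correlation, and 717 had r of −0.9 or below. Among the other 8 members r lay between −0.35 for Actg2 and 0.46 for Lmod1, with adjusted permutation p = 0.0308 for Lmod1 and for Myh11 (r = 0.45) and 0.111 or more for the remaining 6. Actg2 gave rho = −0.46 with an adjusted permutation p of 0.0228. After subtraction of group means r was 0.141 for Lmod1, 0.367 for Myh11 and −0.034 for Actg2. It was 0.493 for Des, −0.437 for Tagln, −0.425 for Smtn, 0.050 for Cnn1 and −0.049 for Acta2. The table gives lengths of 4147 bases for Synpo2, 5090 for Myocd, 4501 for Lmod1 (r = 0.46) and 6693 for Myh11 (r = 0.45). The other members, at 1254 to 3307 bases, had r between −0.35 and 0.26. The part of transcript length in these relations was not tested.

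**Figure D3:**
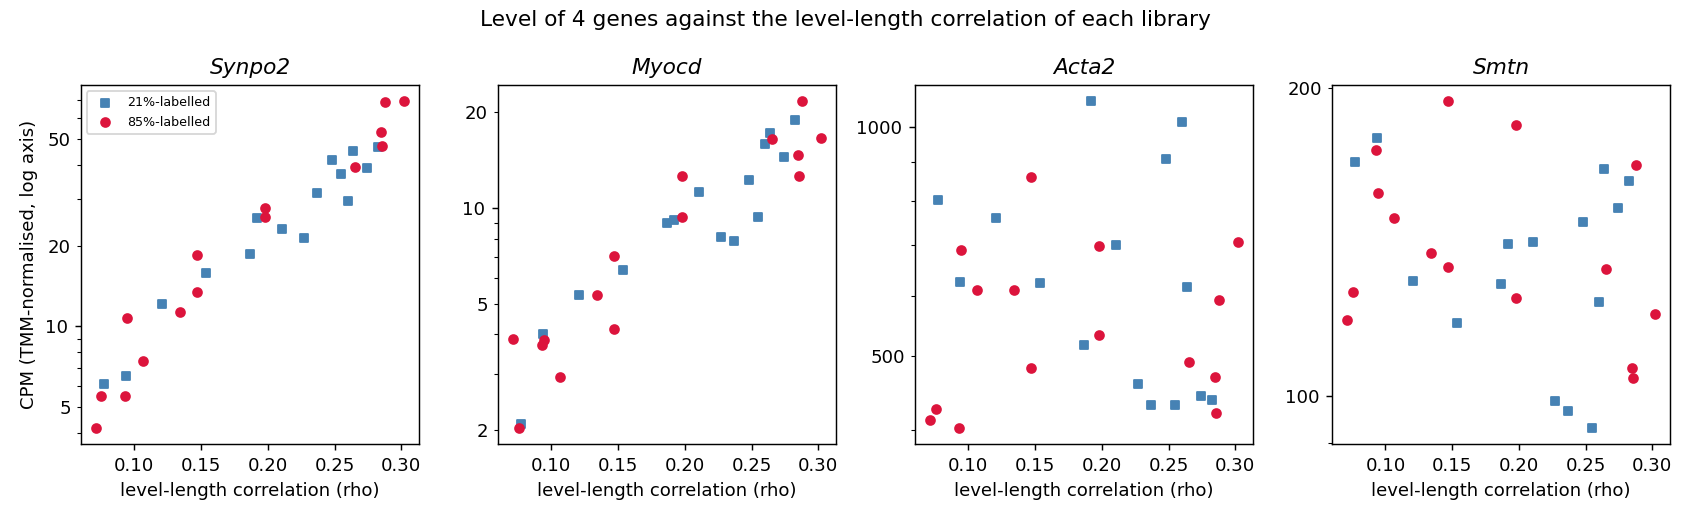
Level of Synpo2, Myocd, Acta2 and Smtn (CPM, log axes) against the rank correlation of level with gene length in the same library, 1 point per library, 21%-labelled as blue squares and 85%-labelled as red circles. Synpo2 and Myocd rise along the axis in both arms (r = 0.971 and 0.938), while Acta2 shows no such trend (r = −0.06).

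The change with age was tested within each arm, and Lmod1 was called in both. From day 1 to day 14 in the 21%-labelled arm 5 of 10 genes rose and none fell, beside 19.1% of all genes called, 9.04% higher. Lmod1 rose most, from 18.5 ± 1.66 to 55.7 ± 3.55 CPM (SD, n = 3), a log2 difference of 1.59 ± 0.16 (edgeR adjusted p = 1.95e-07). Cnn1 rose by 1.26 ± 0.26 (adjusted p = 0.00109), Tagln by 1.18 ± 0.19 (adjusted p = 6.61e-05), Des by 1.15 ± 0.35 (adjusted p = 0.0211) and Acta2 by 1.08 ± 0.22 (adjusted p = 0.00104). The call of Des was lost without 21%-labelled day 1 replicate 1 (1.13) or replicate 3 (1.16) and without day 14 replicate 2 (0.80). Actg2 had a value of 0.84 ± 0.36 (adjusted p = 0.0985) and was called without 21%-labelled day 14 replicate 3 (1.14). Smtn had a value of 0.49 ± 0.14 with an adjusted p of 0.0130, just under the size threshold, and was called without day 1 replicate 1 (0.54), day 1 replicate 3 (0.52) or day 14 replicate 2 (0.58). Markers of other cells moved over the same interval in the 21%-labelled arm, and their part in the rises was not tested. Macrophage markers summed to 169.6 to 188.8 CPM at day 1 and 539 to 753 CPM at day 14 (6 of 6 called higher), and handling and stress genes to 172 to 208 CPM and 551 to 923 CPM (6 of 6 called higher). Endothelial markers summed to 1860 to 2166 CPM at day 1 and 946 to 1289 CPM at day 14 (4 of 6 tested called lower), and heart muscle genes to 152 to 227 CPM and 36.3 to 145 CPM (5 of 10 called lower).

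From day 1 to day 14 in the 85%-labelled arm 4 of 10 genes rose and none fell, beside 51.1% of all genes called, 25.1% higher. Synpo2 rose by 2.87 ± 0.58 (edgeR adjusted p = 0.000300), Myocd by 1.90 ± 0.44 (adjusted p = 0.000936), Lmod1 by 1.13 ± 0.16 (adjusted p = 1.84e-05) and Myh11 by 0.74 ± 0.22 (adjusted p = 0.00725). Only the call of Lmod1 held with the mitochondrial share or the length correlation as a covariate, and Myocd then had log2 values of 1.19 and −0.22. Myh11 was not called without 85%-labelled day 14 replicate 3 (0.45), the library with heart and cartilage RNA. Smtn had a value of −0.36 ± 0.14 (adjusted p = 0.0297), below the size threshold. Acta2, Tagln and Cnn1, which rose in the 21%-labelled arm, had means of 433 and 532, of 545 and 625, and of 115 and 130.3 CPM at days 1 and 14 in this arm.

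**Figure D4:**
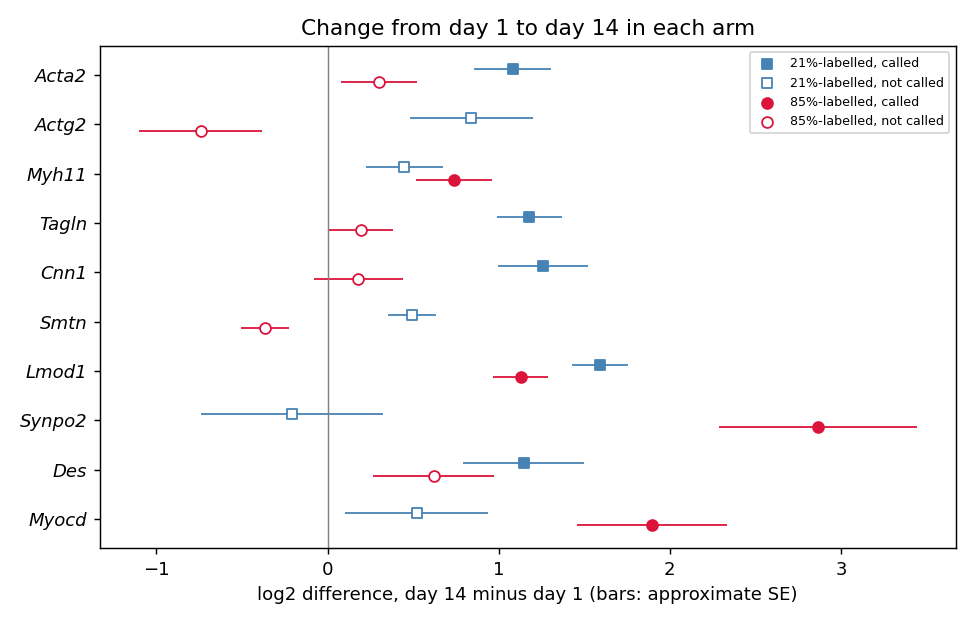
Log2 difference between day 14 and day 1 (horizontal axis) of each gene in the 21%-labelled arm (blue squares) and the 85%-labelled arm (red circles), with bars for the approximate SE and filled points for genes called. Acta2, Tagln, Cnn1 and Des are filled only in the 21%-labelled arm and Myh11, Synpo2 and Myocd only in the 85%-labelled arm, while Lmod1 is filled in both. The difference between the arms was itself not called for Des, Myh11 or Myocd.

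Across all 5 days, edgeR's F test for any change between days called 8 of 10 genes in the 21%-labelled arm, all but Myh11 and Synpo2, beside 56.3% of all genes tested. In the 85%-labelled arm it called 6, Myh11, Tagln, Lmod1, Myocd, Smtn and Synpo2, beside 58.9% of all genes tested. In the 21%-labelled arm Acta2, Tagln, Cnn1 and Actg2 had higher means at day 3 than at day 7, so their course was not a steady climb.

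Whether the difference between the arms itself changed with day was tested in the same model. The F test over the 5 days called 5 of 10 genes (Tagln, Cnn1, Lmod1, Smtn and Synpo2), beside 37.6% of all genes tested. The difference at day 14 minus that at day 1, a comparison added after the data were seen, is also the difference between the arms in the change from day 1 to day 14. It called 6 of 10 genes, beside 44.3% of all genes tested (22.1% positive and 22.3% negative). It was negative for Actg2 (−1.58 ± 0.51, edgeR adjusted p = 0.0148), Cnn1 (−1.08 ± 0.37, adjusted p = 0.0202), Tagln (−0.98 ± 0.27, adjusted p = 0.00507), Smtn (−0.86 ± 0.20, adjusted p = 0.00164) and Acta2 (−0.78 ± 0.31, adjusted p = 0.0456). It was positive for Synpo2 (3.07 ± 0.78, adjusted p = 0.00314), and Myh11, Des, Lmod1 and Myocd were not called. With the length correlation as a covariate none of the 6 was called, and with the mitochondrial share as a covariate 1 was. Shares of all genes called in those fits are not given here. For days 10 and 14 against days 3 and 7, Synpo2 alone was called (1.61 ± 0.54, edgeR adjusted p = 0.0462), beside 12.1% of all genes tested, 5.79% in the higher direction. Averaged over the 5 days, edgeR's test called 0 of 10 genes, beside 13.3% of all genes tested, with 1 gene, Cnn1, at an unadjusted p below 0.05, and DESeq2 also called 0.

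The other genes of the pathway were read from 4 lists, each of which held calls in both directions at day 14. Their counts stand beside 21.2% of all genes tested, 10.8% lower and 10.5% higher. Of 18 genes that regulate myosin or calcium in smooth muscle, 3 were called lower and 1 higher. Tropomyosin genes Tpm2 (−0.80) and Tpm1 (−0.60) and the light chain gene Myl6 (−0.79) were lower, while Mylk, the light chain kinase, was higher (0.56). Of 22 genes of the cytoskeleton and adhesion sites, 3 were lower and 2 higher, with Actn1, an actin cross-linker, at −0.89, Mustn1 at −0.72, Synm at 0.73 and Pgm5 at 1.16. Of 13 regulators of these genes, 1 was lower and 3 higher, with Tgfb1i1 at −0.93, Foxf1, a transcription factor of lung mesenchyme, at 1.18, Mef2c at 0.81 and Heyl at 0.50. Of 11 receptors that drive or relax smooth muscle, 1 was lower, Htr2a at −2.03, and 2 were higher, the endothelin receptor gene Ednra at 0.59 and the adrenoceptor gene Adra1a at 2.86. Their median log2 differences were 0.01, 0.04, 0.26 and 0.48 in that order, against 0.01 over all genes tested. Mrtfb, a myocardin-related coactivator, and Prkg1 were not analysed here.

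At day 14, 10.5% of all genes tested were called higher and 10.8% lower. The pericyte list had 4 of 11 genes called higher in the 85%-labelled group at day 14 and none lower. It was led by Gucy1a1 (2.05), Cox4i2 (2.52), Gucy1b1 (1.25) and Pdgfrb (1.03). Its summed level was 1174 to 1285 CPM against 518 to 666 CPM in the 21%-labelled libraries. The alveolar myofibroblast and fibroblast list had 4 of 12 higher and 2 lower, with sums of 2348 to 2631 CPM against 1461 to 1948 CPM. These sums were higher at day 14, where Acta2 and Tagln were lower, and their part in the results of those genes was not tested. Pericyte sums were higher without overlap at days 1, 3 and 10 too. At day 3 they were 1117 to 1149 CPM against 758 to 831 CPM. The calls did not follow these sums, which weigh abundant genes most. Of 11 pericyte genes 2 were called higher and 3 lower at day 1, with a median log2 difference of −0.17, beside 41.4% of all genes tested. At day 3 the pericyte list had 0 called, beside 0.393% of all genes, and at day 10 it had 2 higher, beside 2.93%. Sums of the myofibroblast and fibroblast list were higher without overlap at days 7 and 10. At day 7 they were 2306 to 2614 CPM against 2062 to 2172 CPM. Of the 12 genes of that list 0 were called at day 7, and at day 10 1 was lower and 0 higher. Among all genes tested 0.0854% were called at day 7. At the remaining days the arms overlapped.

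At days 3 and 7 none of the genes in the 4 smooth muscle lists was called, where 0.393% and 0.0854% of all genes tested were. From day 1 to day 14 in the 21%-labelled arm, 5 of 18 myosin regulators rose and none fell, among them Cald1, the actin-binding regulator caldesmon (1.26), Tpm2 (1.11), Tpm1 (0.63) and Pln, the phospholamban gene (1.87). In the same arm 7 of 22 cytoskeleton and adhesion genes rose and none fell. There 1 of 13 regulators rose and 1 fell, and 1 of 11 receptors rose and 2 fell. Among all genes tested 19.1% were called in this comparison, 9.04% higher. In the 85%-labelled arm 8 myosin regulators rose and 4 fell, and 11 cytoskeleton and adhesion genes rose and 1 fell. There 6 regulators rose and 1 fell, and 7 receptors rose and none fell. These counts stand beside 51.1% of all genes tested, 25.1% higher.

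At day 1 the regulators and the myosin regulators held calls in both directions, and the receptors in the lower direction alone. All list counts stand beside 41.4% of all genes tested at day 1, 20.6% higher and 20.8% lower. Of the regulators 5 of 13 were lower and 2 higher in the 85%-labelled group, with the receptor gene Notch3 at −1.98, the myocardin-related coactivator gene Mrtfa at −1.68, Srf, which encodes the CArG-binding factor itself, at −0.58 and Tgfb1i1 at 0.80. Of 22 cytoskeleton and adhesion genes 7 were lower and 4 higher. Of the myosin regulators 5 of 18 were higher and 2 lower, with the phosphatase inhibitor gene Ppp1r14a at 1.77, the light chain genes Myl6 at 1.16 and Myl9 at 1.03, and the calcium release channel gene Itpr1 at −1.59. Of 11 receptors 5 were lower and none higher, among them the muscarinic receptor gene Chrm3 at −1.57 and the prostaglandin receptor gene Ptgfr at −2.24. The length correlation and mitochondrial share of these libraries moved with these values too, and their part in the lists was not tested.

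The 10 genes did not vary as a single block. Over the 30 libraries, with group means subtracted, the closest of the 45 pairs were Cnn1 and Actg2 (r = 0.895), Myocd and Synpo2 (r = 0.875), Acta2 and Tagln (r = 0.872), Myh11 and Des (r = 0.841) and Acta2 and Cnn1 (r = 0.822). The lowest pair was Myocd and Smtn (r = −0.457), and Tagln and Myocd had r = −0.364. These are descriptions over libraries that share the properties given above. The genes most like the mean profile of the 10, over all 30 libraries, were Msrb3 (Pearson r = 0.815), Actn1 (0.811), P4ha2 (0.811), Col18a1 (0.799), Lgals3bp (0.797), Cald1 (0.797), Tsku (0.785), Olfml2b (0.781), Tgfb3 (0.779) and Cdh13 (0.778). After subtraction of group means r was 0.831 for Actn1, 0.768 for Msrb3 and 0.412 for Lgals3bp.

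The authors' deposited table of comparisons gave an adjusted p below 0.05 for 5 of the 10 genes at day 14, for 3 at day 1 (Smtn, Myocd and Synpo2), for Lmod1 at day 10 and for Cnn1 at day 3, and for 0 at day 7. In the authors' deposited table the day 14 genes were Acta2, Tagln, Actg2, Smtn and Synpo2, and Cnn1 had an adjusted p of 0.0606. Synpo2 had the smallest adjusted p of the members there at day 14, 8.63e-09, and was higher in the 85%-labelled group (log2 −1.13, 21%-labelled over 85%-labelled). Cnn1 at day 3 had an adjusted p of 0.00366 in the authors' deposited table. Smtn and Synpo2 at day 14 and Cnn1 at day 3 were not called in the fit over all 30 libraries, and Cnn1 at day 14 was.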

How the data were processed

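Per the labels' protocols, RNA of neonatal rat lung was sequenced from SMARTer libraries. The authors deposited 1 table with raw counts per gene and library, FPKM values, and log2 fold changes with adjusted p-values of their own comparisons (the deposited log2 values are 21%-labelled over 85%-labelled). Gene IDs are rat Ensembl IDs, whereas the submitters' processing notes list only the mouse builds GRCm38 and mm10. No aligner, counter or rat build was given in the sources used here.

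Counts were tested with edgeR 4.0.16 (R 4.3.3): filterByExpr kept 17571 genes, sizes were scaled by TMM, and 1 robust quasi-likelihood model was fitted over 10 groups, with 20 residual degrees of freedom. A call needs a Benjamini-Hochberg adjusted p below 0.05 and a log2 difference of 0.5 or more (F tests, the p alone). SEs are the log2 difference over the root of F. CPM are TMM-scaled counts, and FPKM divides them by the table's gene length. Alternatives were DESeq2 1.42.0, its size factors, no filter, covariates, a replicate block, groups alone and left-out libraries. The scripts were tested on simulated data. No 2 of the 30 libraries held identical counts, and replicates differed by more than sampling noise. Deviations from group means of same-numbered libraries correlated above 0.1 in all 3 pairs at day 3 alone (0.107 to 0.303). The labels tie the numbers to no animal, litter or day, and the replicate block gave 0 members called at day 3, as without it.

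The 10 genes and all lists were chosen with earlier results of these data known. Named are all 10 members, up to 4 list genes with the smallest p in the comparison described, the 10 non-members most like the members' mean profile (mean log2 CPM of at least 3), and Cdkn1a, Mylpf, Krt13, Acta1 and Actc1 as checks. Myh6 and Col2a1 were named after their values were seen.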

Additional observations from a re-analysis of the deposited data

Results flagged for a closer look

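The difference between the arms changed between days for Lmod1 (edgeR F test, adjusted p = 0.00585), Smtn (0.00602), Synpo2 (0.0168), Tagln (0.0238) and Cnn1 (0.0277). The difference at day 14 minus that at day 1 was called for Actg2 (log2 -1.58), Cnn1 (-1.08), Tagln (-0.98), Smtn (-0.86), Acta2 (-0.78) and Synpo2 (3.07). These 11 values were flagged because the same contrast gave different effects at different days, and Tagln, Cnn1, Smtn and Synpo2 appear in both sets. The F test called 5 of 10 members, beside 37.6% of all genes tested. The second comparison, added after the data were seen, called 6 of 10, beside 44.3% of all genes tested. The length correlation was lower in the 85%-labelled libraries than in the 21%-labelled ones at day 1 and higher at day 14, and the part of this in the values was not tested beyond the fits with it as a covariate.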

How the results depend on the processing

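The count of members called at day 14 (4) was 4 under DESeq2's size factors, no filter, the replicate block, groups alone and without the libraries above 6% mitochondrial counts, 5 with DESeq2 or the mitochondrial covariate, and 6 with the length covariate or without the libraries with Krt13 or Col2a1 at 50 CPM or more, a setting chosen after seeing the data. At day 1 the count of 3 became 0 with the mitochondrial covariate, with the length covariate and without the libraries above 6% mitochondrial counts. For the change of the difference between days (5) these 3 settings gave 1, 2 and 3, for day 14 minus day 1 in the 85%-labelled arm (4) 1, 1 and 2, and for the difference at day 14 minus that at day 1 (6) 1, 0 and 2. For days 10 and 14 against days 3 and 7 the count of 1 became 0 with no filter, with the length covariate and without the Krt13 or Col2a1 libraries, and 2 with DESeq2, with the replicate block and without the libraries above 6% mitochondrial counts. At day 10 the count of 1 became 0 with the replicate block and with groups alone. Myocd reversed with the length covariate at day 1 (0.43) and from day 1 to day 14 in the 85%-labelled arm (-0.22). The cause was not tested. Shares of all genes called under these settings, or with libraries left out, are not given here. The counts therefore describe the members alone.

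With 1 library left out, counts ranged from 1 to 2 at day 1, 0 to 0 at days 3 and 7 and over the mean of days, 0 to 1 at day 10, 2 to 6 at day 14, 4 to 9 for the change between days, 5 to 7 and 4 to 4 for day 14 minus day 1 in the 21%-labelled and 85%-labelled arms, 7 to 9 and 5 to 7 for any change between days in those arms, 0 to 2 for late against early days, and 4 to 7 for day 14 against day 1. Of 375 alternative values of 25 single-gene results, 319 kept direction and side of the threshold, 38 lost a call, 16 gained one and 2 reversed.

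Of 15 same-numbered pairs 8 had r above 0.1 (-0.258 to 0.475). At day 3 all 3 did, but not at any other day, so over all days the numbers were not taken to pair samples. The 85%-labelled samples correlated best with their own number in 8 of 9 cases at days 1 to 7 and 1 of 6 at days 10 and 14, a hint from the data. The block changed the counts given above, gave 5 in place of 6 for the difference at day 14 minus that at day 1, and lost 1 single-gene call, Lmod1 at day 10 (adjusted p = 0.0605). Depth limits Myocd most, with as few as 30 reads in a library.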
